A study of Mus musculus with 14 samples.

Results

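Expression is described for 10 genes that stood higher in the fat of wild-type mice on a Western diet and that are, for the most part, best known from organs other than fat: Lipf, Slc5a7, Oxtr, Gpr50, Mrc2, Lctl, Cdkl4, Prune2, Fam122b and Sycp3. They are 10 of 19937 genes with a named probe set. They were picked from a list of the larger rises in wild type in these same arrays, where their ranks by log2 fold change ran from 2 to 73, so their values in wild type describe the choice and support nothing. The rise that chose the genes was read from the WT arrays, although the probe set kept for Prune2 was that with the highest mean over all 14 arrays. The genes were nonetheless proposed with results of all groups known, so their EKO values may not be fully independent of the choice, above all for genes whose diet effects were known to differ between the genotypes.

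Gene expression was measured with Affymetrix whole-transcript arrays in RNA from the epididymal fat pad, a visceral depot beside the testis, of male C57BL6/J mice. All animals shared that strain, sex and age, and began their diet at 8 weeks of age and kept it for 24 weeks. EKO animals, whose genotype the labels tie to apolipoprotein E, ate either a Western diet with 42% anhydrous milk fat (4 arrays) or a normal diet (4 arrays). WT animals ate the Western diet (3 arrays) or the normal diet (3 arrays). The labels call the replicates biological, and they do not say how the EKO allele was made. Values are log2 RMA levels, a level is followed by ± SD and a log2 fold change by ± its standard error.

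The 10 genes serve unlike tasks. Lipf encodes gastric lipase, an acid-stable enzyme that the stomach secretes to begin the digestion of fat, and Slc5a7 the high-affinity choline transporter with which cholinergic nerve endings take up choline to make acetylcholine. Oxtr is the receptor for oxytocin, Gpr50 an orphan receptor related to the melatonin receptors and found in the hypothalamus and pituitary, and Mrc2 (Endo180) a collagen uptake receptor of the mannose receptor family. Lctl is a klotho relative with a glycosidase-like fold, Cdkl4 a kinase of the cyclin-dependent kinase-like family, and Prune2 a protein with a BNIP2-type lipid-binding domain that is best known from nervous tissue. Fam122b belongs to a family of small inhibitors of protein phosphatase 2A, and Sycp3 is a structural protein of the synaptonemal complex, which holds paired chromosomes together in meiosis.

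By GRCm38.p6, Lipf and Prune2 lie on chromosome 19, Slc5a7 and Cdkl4 on 17, Gpr50 and Fam122b on X, Oxtr on 6, Lctl on 9, Sycp3 on 10 and Mrc2 on 11. RefSeq promoters of build GRCm38.p6 were matched for 9 of the 10 genes, with 2 entries for Cdkl4; Mrc2 had no entry. The 250 bases before the start of transcription are shown for Lipf, Slc5a7 and Lctl, whose levels went together most closely in the EKO arrays, and for Sycp3, the meiotic gene. The choice of these 4 genes and of the letters in capitals was made after values and matches were seen. Capitals mark CCAAT in Lipf (chr19:33960998-33961247, plus strand), TATAAA in Slc5a7 (chr17:54299035-54299284, minus strand), AGGTCA in Lctl (chr9:64116897-64117146, plus strand), and CACGTG and TTTCCCGC in Sycp3 (chr10:88459337-88459586, plus strand), or their reverse complements; matches to other motifs were left in lower case.
Lipf: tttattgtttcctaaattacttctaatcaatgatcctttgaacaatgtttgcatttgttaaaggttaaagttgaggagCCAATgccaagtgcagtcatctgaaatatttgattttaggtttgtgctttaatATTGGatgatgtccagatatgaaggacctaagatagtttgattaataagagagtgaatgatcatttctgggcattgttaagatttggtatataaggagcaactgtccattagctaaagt
Slc5a7: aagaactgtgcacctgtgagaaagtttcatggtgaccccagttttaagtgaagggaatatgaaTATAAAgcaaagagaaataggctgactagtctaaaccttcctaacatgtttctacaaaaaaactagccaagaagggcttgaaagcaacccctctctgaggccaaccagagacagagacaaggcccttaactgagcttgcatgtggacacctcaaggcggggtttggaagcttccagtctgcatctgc
Lctl: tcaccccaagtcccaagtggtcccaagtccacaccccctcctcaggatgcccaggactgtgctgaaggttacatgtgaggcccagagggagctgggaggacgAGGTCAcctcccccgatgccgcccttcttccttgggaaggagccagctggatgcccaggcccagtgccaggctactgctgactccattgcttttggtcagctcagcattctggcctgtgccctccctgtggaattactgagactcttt
Sycp3: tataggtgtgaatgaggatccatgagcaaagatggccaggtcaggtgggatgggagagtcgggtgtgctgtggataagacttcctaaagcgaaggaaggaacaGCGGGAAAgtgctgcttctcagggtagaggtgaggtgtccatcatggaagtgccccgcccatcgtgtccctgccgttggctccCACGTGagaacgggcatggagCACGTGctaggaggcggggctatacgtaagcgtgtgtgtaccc

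A match of letters is a description and not a binding site. Both strands were searched, and the motifs searched do not overlap in the windows shown. The CCAAT box occurs in the Lipf window at 172 and 119 bases before the start, and in 33.8% of all 32851 promoters of that length. It also occurs in Cdkl4, Gpr50, Prune2 and Fam122b. TATAAA, the TATA box, was found in Slc5a7 at 187 bases before the start and in 12.4% of all promoters. The palindromic E-box CACGTG occurs in Sycp3 at 64 and 43 bases before the start, in Oxtr, and in 6.02% of all promoters. The E2F-type motif TTTCCCGC occurs in Sycp3 at 147 bases before the start and in 0.895% of all promoters. AGGTCA, a core motif of nuclear receptors, was present in Lctl, Sycp3 and Oxtr and in 14.02% of all promoters, and the GC box GGGCGG in 7 of the 9 genes and in 32.7% of all promoters. The AP-1 motif TGANTCA, held by 6.75% of all promoters, matched in 0 of the 9 windows. CpG content also differed, with 0 CpG in Lipf, 1 in Slc5a7, 3 in Lctl, 12 in Sycp3 and in Oxtr, 17 in Fam122b and 22 in Prune2. Across all promoters the quartiles were 2, 6 and 16. No motif searched was present in all 9 genes.

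Array medians lay between 7.92 and 8.10, and arrays of a group correlated at 0.976 to 0.995. Apoe stood at 10.04 ± 0.19 in EKO on Western and 9.74 ± 0.22 in EKO on normal diet (SD, n = 4 each), against 13.39 ± 0.26 in WT on Western and 13.41 ± 0.24 in WT on normal diet (SD, n = 3 each), and every array matched its genotype label. Of 14 adipocyte genes measured, 13 lay above background on every array, with Adipoq at 13.04 to 13.51 by group mean. Array background was taken as the mean, and separately the 95th percentile, of 1210 rows of odorant and pheromone receptor genes, a class that fat is not known to express widely. The mean ran from 6.29 to 6.56 on 9 arrays and from 6.75 to 6.84 on the other 5 (in EKO, Western-fed replicates 1 and 3 and normal-fed replicate 2, and in WT replicate 1 of either diet). In this whole tissue, more cells of a type and more RNA per cell cannot be told apart.

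Set against the array background, the 10 genes were above the 95th percentile of receptor rows in all 30 values of WT on Western diet. Among EKO values the count was 22 of 40 for Western and 22 of 40 for normal diet, and among WT values on normal diet it was 18 of 30. Lctl, Prune2, Oxtr and Mrc2 passed that mark on all 14 arrays. Cdkl4 and Gpr50 passed it on 0 arrays outside WT on Western diet, and Fam122b passed it on 3 of those 11 arrays. Lipf, Slc5a7 and Sycp3 passed it on some arrays of each of the other groups.

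**Figure D1:**
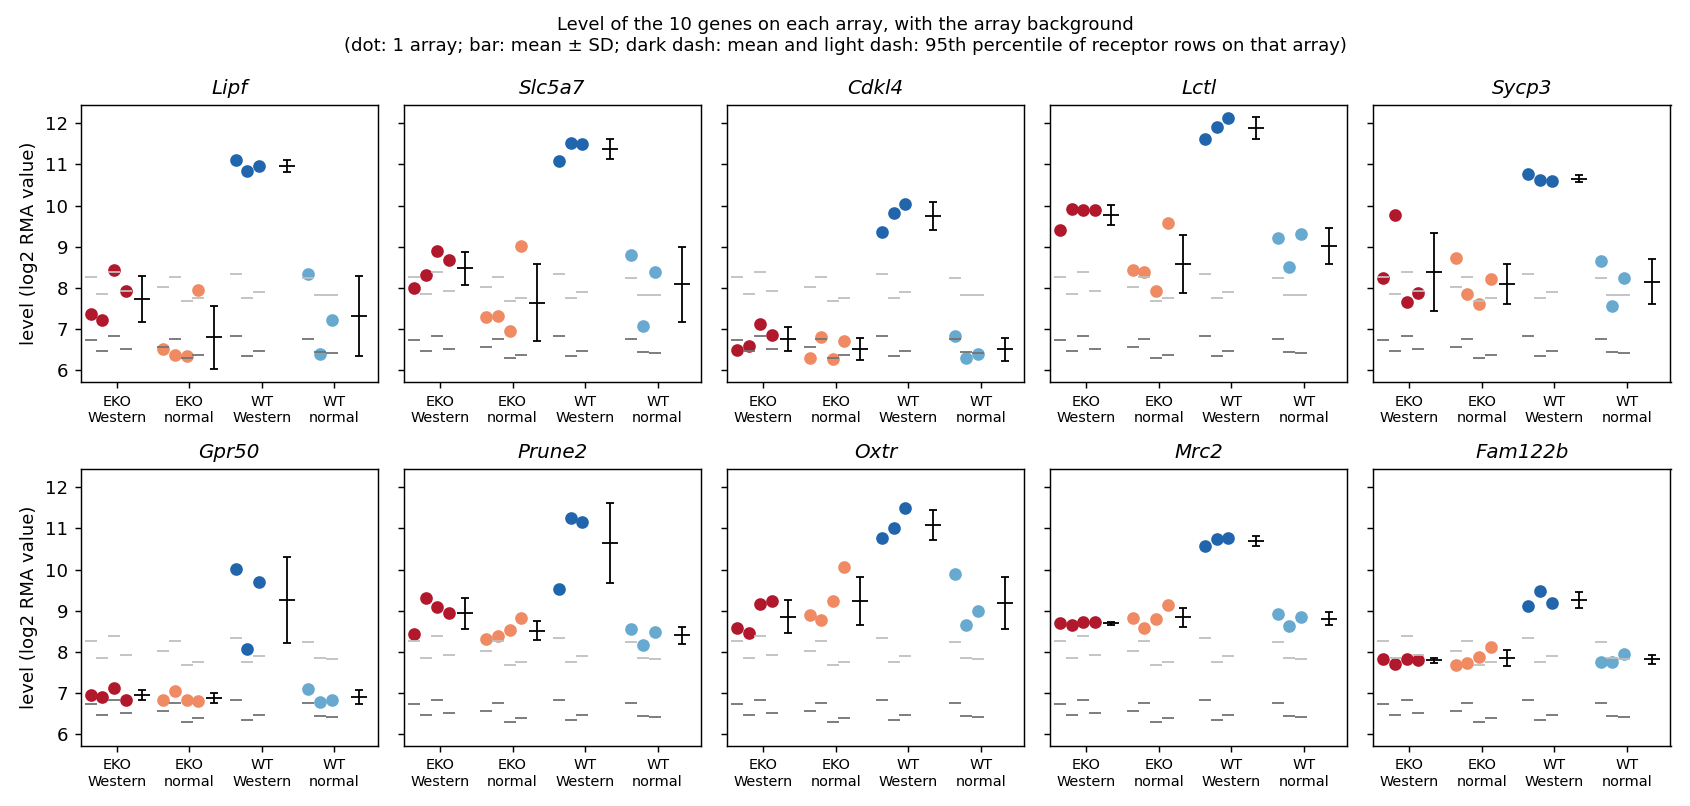
Log2 RMA level of each gene (y axis) on each of the 14 arrays, grouped on the x axis as EKO on Western, EKO on normal, WT on Western and WT on normal diet; dots are arrays, bars are mean ± SD, and dashes mark the mean (dark) and 95th percentile (light) of the receptor rows of that array. All WT arrays on Western diet stand above the light dash for every gene, and Cdkl4 lies near the dark dash in the other 3 groups.

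Within EKO, the difference between the diet means does not hold the WT arrays from which the rise was read. Its standard error, p and interval do use them, since the spread was estimated over all 14 arrays. By limma 0 of the 10 genes passed at an adjusted p under 0.05, as did 0 of all 19937 genes (0%), while 883 genes, 2 of the 10 among them, had an unadjusted p under 0.05. The 2 were Lctl and Lipf. The EKO groups overlapped for all 10 genes, where 0.973% of all genes were higher without overlap on Western diet and 1.59% lower. Values were higher on Western diet by group mean for 7 genes and lower for Oxtr, Mrc2 and Fam122b. The median log2 fold change of the 10 was 0.26, against 0.0067 over all genes.

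In WT, all 10 genes were higher on Western diet and passed by limma, and all 10 had groups that did not overlap. These counts restate the choice: over all genes 3.19% passed as higher, and 8.77% were higher without overlap. The median log2 fold change was 2.43, against -0.020 over all genes. On Western diet all 10 were lower in EKO than in WT, without overlap, where 4.05% of all genes passed as lower and 8.71% were lower without overlap. That comparison shares the WT arrays on Western diet with the choice of genes. On normal diet the EKO minus WT differences of the 9 genes other than Lipf ran from -0.45 to 0.11. For Lipf, whose EKO mean lay at background there, the ratio of the WT to the EKO mean was at least 1.33-fold. Its groups overlapped, and the 95% interval of the EKO minus WT difference, -1.46 to 0.42, held no difference as well. On that diet 0 of the 10 passed by limma or had an unadjusted p under 0.05; over all genes 0.00502% passed. By limma the diet effect was lower in EKO than in WT for Cdkl4, Gpr50, Oxtr, Mrc2 and Fam122b, 5 of the 10, against 0.336% of all genes, in an interaction that contains the WT diet contrast. Cdkl4 was at background in 3 of the 4 groups of that interaction.

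**Figure D2:**
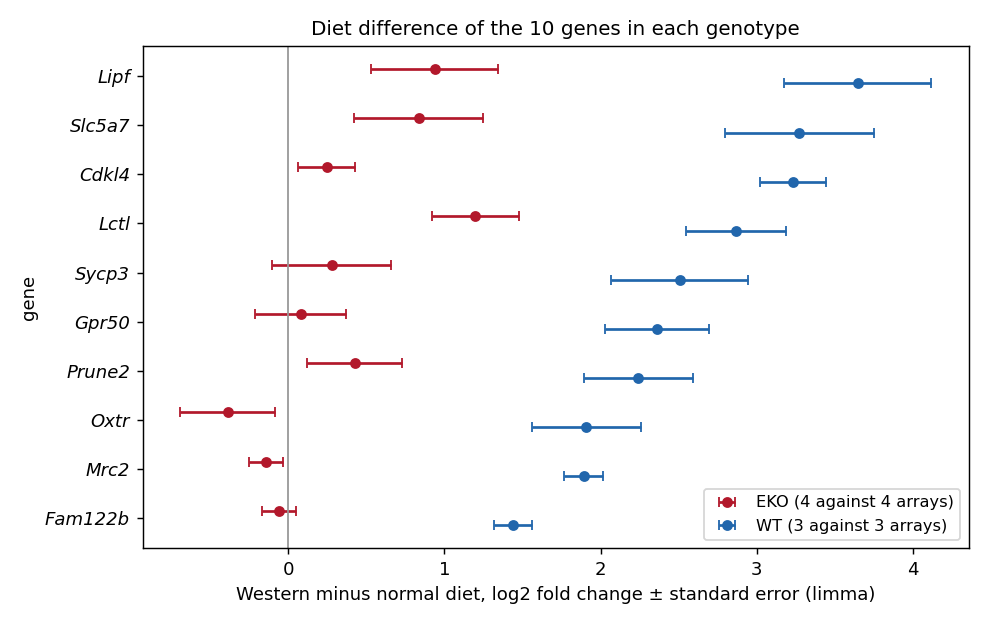
Log2 fold change, Western minus normal diet, ± standard error (x axis) for each gene (y axis), in EKO (red, 4 against 4 arrays) and in WT (blue, 3 against 3 arrays). The EKO values lie between -0.39 and 1.20 and the WT values between 1.44 and 3.65.

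Lipf, the gastric lipase gene, had levels of 7.36, 7.23, 8.44 and 7.93 in EKO on Western diet, against 6.53, 6.37, 6.36 and 7.96 in EKO on normal diet. In WT it stood at 11.12, 10.83 and 10.95 on Western diet, against 8.34, 6.41 and 7.21 on normal diet. In EKO 1 array on normal diet, replicate 4, lay among those on Western diet and the other 3 lay near the mean of the receptor rows, while in WT the diets stood far apart. The EKO diet difference was 0.94 ± 0.41 (limma adjusted p = 0.946, unadjusted 0.0362), with a 95% interval of 0.07 to 1.81. Because the EKO mean on normal diet, 6.80 ± 0.77 (SD, n = 4), lay at background, the measured ratio is given as at least 1.78-fold. This ratio of means leaves out the spread between arrays, and the EKO groups overlapped. With the 95th percentile of receptor rows as the floor, both EKO group means lay under it and no fold is given. The WT value was 3.65 ± 0.47, or at least 7.79-fold with that floor.

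Other genes of the stomach and other lipases were measured beside Lipf. Of 22 stomach genes measured, 0 passed by limma in WT in either direction and 0 had an unadjusted p under 0.05, with a median log2 fold change of -0.04, where 3.19% of all genes passed as higher and 2.3% as lower. Cblif (gastric intrinsic factor) was at 7.41 ± 0.27 in WT on Western and 7.48 ± 0.14 on normal diet (SD, n = 3 each). Atp4a, the proton pump of parietal cells, was at 7.50 ± 0.11 on Western and 7.54 ± 0.03 on normal diet. Both lay below the 95th percentile of receptor rows on every array, and 3 to 6 of the 22 stomach genes lay above it on each array. Among 16 other lipase genes 1 passed, Lipa, the lysosomal acid lipase and a paralog of Lipf, which rose by 1.09 ± 0.13 in WT (limma adjusted p = 0.00047). In EKO 0 genes of either list passed or had an unadjusted p under 0.05.

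Slc5a7, the choline transporter gene, had 8.01, 8.32, 8.91 and 8.69 in EKO on Western diet, against 7.30, 7.31, 6.96 and 9.02 in EKO on normal diet. In WT the levels were 11.09, 11.51 and 11.50 on Western diet, against 8.81, 7.08 and 8.40 on normal diet. As for Lipf, EKO replicate 4 on normal diet was the high one of its group and here the highest of all 8 EKO arrays, and the WT diets did not overlap. The EKO means differed by 0.84 ± 0.41 (limma adjusted p = 0.946), with a 95% interval of -0.05 to 1.72, and it was 1.29 without that array (limma adjusted p = 0.432). With the 95th percentile of receptor rows as the floor for the normal diet, the ratio of the EKO means was at least 1.18-fold. That ratio leaves out the spread between arrays, and the EKO groups overlapped. In WT the difference was 3.27 ± 0.48, or at least 8.08-fold with that floor.

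Of 28 other genes of choline uptake and use 0 rose and 3 fell in WT by limma. These were Bche, butyrylcholinesterase (-0.72 ± 0.17), Slc44a3, a choline transporter-like gene (-0.60 ± 0.15), and Aldh7a1 (-0.42 ± 0.09). Aldh7a1 encodes an aldehyde dehydrogenase that can act on betaine aldehyde, among other substrates. Of 17 genes of cholinergic and peripheral neurons 1 fell, the transcription factor gene Isl1 (-0.84 ± 0.20), and 0 rose. Chat, which makes acetylcholine, was at 6.89 ± 0.02 in WT on Western and 6.99 ± 0.06 on normal diet (SD, n = 3 each) and below the 95th percentile of receptor rows on all 14 arrays. Among 12 relatives in the SLC5 family 0 passed by limma and 1, Slc5a6, a vitamin transporter gene, had an unadjusted p under 0.05 (-0.74 ± 0.29).

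Of the receptor genes, Oxtr stood at 8.58, 8.45, 9.15 and 9.24 in EKO on Western diet, against 8.89, 8.78, 9.24 and 10.07 in EKO on normal diet. In WT it was 10.76, 11.01 and 11.49 on Western diet, against 9.88, 8.66 and 8.999 on normal diet. The EKO groups overlapped and their means ran opposite to those of WT. The EKO difference was -0.39 ± 0.30 (limma adjusted p = 0.946) with a 95% interval of -1.04 to 0.26, and it was -0.11 without EKO replicate 4 on normal diet. Among 14 genes of oxytocin and vasopressin signalling 1 rose in WT, Plcb2, a phospholipase C gene of blood cells (0.41 ± 0.09, limma adjusted p = 0.0162), and 0 fell. The oxytocin gene itself, Oxt, was at 9.42 ± 0.18 in WT on Western and 9.39 ± 0.14 on normal diet (SD, n = 3 each).

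Gpr50 had 6.96, 6.91, 7.13 and 6.84 in EKO on Western diet, against 6.84, 7.05, 6.84 and 6.80 in EKO on normal diet. In WT the levels were 10.005, 8.07 and 9.71 on Western diet, against 7.09, 6.78 and 6.83 on normal diet. Replicate 2 of the Western-fed WT animals was well below the other two of its group, and the SD there was 1.04. Between the EKO means lay a difference of 0.08 ± 0.29 (limma adjusted p = 0.979; 95% interval -0.54 to 0.70). The EKO SDs were 0.13 on Western and 0.11 on normal diet, so that interval also carries the spread in WT. The WT difference of 2.36 ± 0.33 was 1.44 with array weights, and at least 2.44-fold when the 95th percentile of receptor rows was taken as the floor. Its relatives Mtnr1a and Mtnr1b, the melatonin receptors, had WT differences of 0.05 ± 0.13 and -0.12 ± 0.10. Mtnr1a lay below the 95th percentile of receptor rows on every array, and Mtnr1b on some arrays of each group. Of 15 pituitary and hypothalamic genes 0 passed in WT by limma and 0 had an unadjusted p under 0.05. Between 2 and 6 of these 15 lay above that percentile on each array.

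Mrc2 varied little within groups, with 8.70, 8.64, 8.72 and 8.73 in EKO on Western diet, against 8.83, 8.59, 8.79 and 9.15 in EKO on normal diet. In WT it had 10.57, 10.74 and 10.78 on Western diet, against 8.92, 8.62 and 8.86 on normal diet. The WT arrays on Western diet stood apart from all 11 others, which spanned 8.59 to 9.15. The EKO difference was -0.14 ± 0.11 (limma adjusted p = 0.946), and its 95% interval of -0.37 to 0.09 lay below the WT value of 1.89 ± 0.12. Of 15 genes of the mannose receptor family and collagen uptake 3 rose and 1 fell in WT by limma. Ctsk, a collagen-cleaving cathepsin, rose by 1.22 ± 0.19, Ctsl, another lysosomal cathepsin, by 0.75 ± 0.14 and Fap, a protease of activated fibroblasts, by 0.56 ± 0.15. Pla2r1, a phospholipase A2 receptor of the same family as Mrc2, was lower (-0.39 ± 0.11). Mrc1, the macrophage mannose receptor, was at 10.93 ± 0.36 in WT on Western and 10.43 ± 0.22 on normal diet (SD, n = 3 each), and its difference of 0.50 ± 0.28 did not pass (limma adjusted p = 0.422).

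Lctl, the klotho relative, had the largest EKO difference of the 10. Its levels were 9.42, 9.91, 9.89 and 9.90 in EKO on Western diet, against 8.43, 8.38, 7.94 and 9.57 in EKO on normal diet. In WT they were 11.61, 11.91 and 12.13 on Western diet, against 9.21, 8.52 and 9.32 on normal diet. In EKO only replicate 4 on normal diet reached into the range of the Western diet. The EKO difference of 1.20 ± 0.28 did not pass over all genes (limma adjusted p = 0.524, unadjusted 0.000696; 95% interval 0.60 to 1.79), and it was 41.8% of the WT value of 2.87 ± 0.32. Without that array the EKO difference was 1.53 (limma adjusted p = 0.0605), and over the alternatives it ran from 0.98 to 1.53 with a lowest adjusted p of 0.0572. Of 11 genes of the klotho family and endocrine FGF signalling 0 rose and 1 fell in WT by limma, the receptor gene Fgfr1 (-0.43 ± 0.11). Klb, the co-receptor for FGF21 in fat, was at 10.48 ± 0.18 in WT on Western and 10.81 ± 0.42 on normal diet (SD, n = 3 each).

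Cdkl4 was at array background except in WT on Western diet. Its levels were 6.48, 6.59, 7.12 and 6.87 in EKO on Western diet, against 6.30, 6.80, 6.27 and 6.70 in EKO on normal diet. In WT they were 9.36, 9.83 and 10.03 on Western diet, against 6.83, 6.31 and 6.39 on normal diet. The WT arrays on Western diet stood at least 9.02-fold above those on normal diet, and at least 3.41-fold when the 95th percentile of receptor rows was the floor. WT exceeded EKO on Western diet at least 7.52-fold, or at least 3.10-fold with that floor. The EKO difference of 0.25 ± 0.18 lay between groups at background, so no fold is given for it (limma adjusted p = 0.946). Of 3 other CDKL kinase genes 0 passed in WT or had an unadjusted p under 0.05.

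Prune2 has 2 probe sets. The brighter one had 8.43, 9.30, 9.09 and 8.95 in EKO on Western diet, against 8.31, 8.40, 8.53 and 8.83 in EKO on normal diet. In WT it had 9.53, 11.25 and 11.16 on Western diet, against 8.56, 8.17 and 8.49 on normal diet. Replicate 1 of the Western-fed WT animals lay far below the other two of its group and not far above the highest EKO array, and the WT SD on Western diet was 0.97. In EKO the difference was 0.43 ± 0.30 (limma adjusted p = 0.946), and the other probe set gave 0.43 as well. In WT the 2 sets gave 2.24 and 2.53. Among 4 relatives of Prune2 0 passed in WT by limma, with Prune1, a phosphodiesterase gene, at 0.26 ± 0.10 (unadjusted p = 0.0184).

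Fam122b, the phosphatase inhibitor gene, had 7.84, 7.71, 7.82 and 7.82 in EKO on Western diet, against 7.68, 7.74, 7.88 and 8.13 in EKO on normal diet. In WT it had 9.10, 9.47 and 9.19 on Western diet, against 7.75, 7.75 and 7.95 on normal diet. The 11 arrays outside WT on Western diet spanned 7.68 to 8.13, below all 3 of those. In EKO the difference was -0.06 ± 0.11 (limma adjusted p = 0.954; 95% interval -0.29 to 0.17), against 1.44 ± 0.12 in WT. Of 17 genes of the Fam122 family and protein phosphatase 2A 1 rose in WT by limma, Ppp2r5b, a regulatory subunit (1.63 ± 0.29, limma adjusted p = 0.0041), and 0 fell. The relatives Fam122a and Fam122c had WT differences of 0.09 ± 0.09 and -0.14 ± 0.11.

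Sycp3, the meiotic gene, had 8.24, 9.77, 7.65 and 7.88 in EKO on Western diet, against 8.73, 7.86, 7.62 and 8.22 in EKO on normal diet. In WT it had 10.76, 10.61 and 10.60 on Western diet, against 8.65, 7.56 and 8.25 on normal diet. The EKO arrays were widely spread on both diets, with replicate 2 on Western diet far above the rest, whereas the WT arrays on Western diet had an SD of 0.09. The EKO difference was 0.28 ± 0.38 (limma adjusted p = 0.947; 95% interval -0.53 to 1.09), and it was -0.18 without that array. Of 28 other genes of meiosis and the synaptonemal complex 0 passed in WT by limma and 0 had an unadjusted p under 0.05. Sycp1 and Sycp2, the partners of Sycp3 in the complex, were at 5.23 ± 0.09 and 6.27 ± 0.09 in WT on Western diet. On normal diet they were at 5.23 ± 0.01 and 6.37 ± 0.08 (SD, n = 3 each). Neither passed the 95th percentile of receptor rows on any array, and of the 28 genes 2 to 5 did so on each array. Of 17 testis germ cell genes, and of 17 genes of the epididymis, the organ beside the pad, 0 passed in WT and 0 had an unadjusted p under 0.05. Only 1 to 2 genes of either list lay above the 95th percentile of receptor rows on each array.

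**Figure D3:**
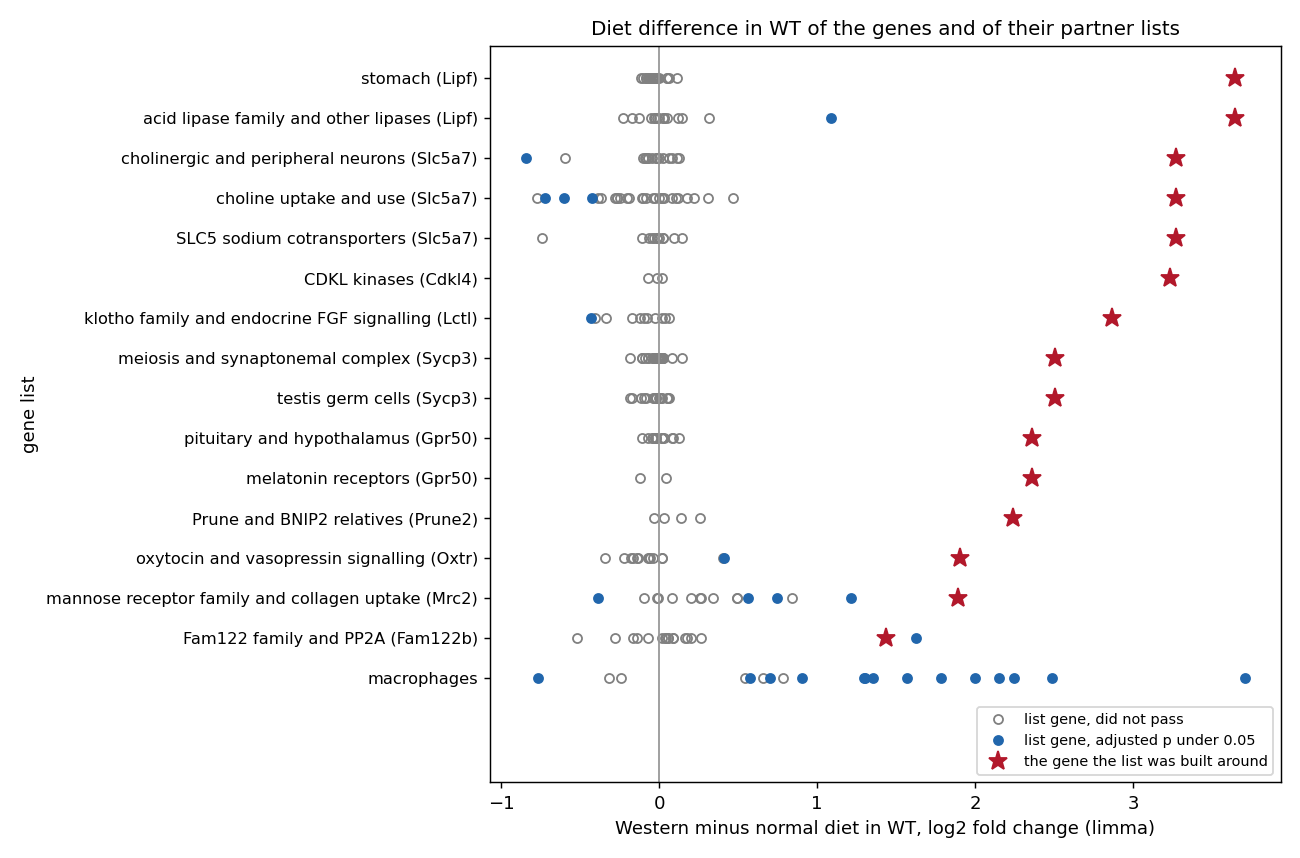
Western minus normal diet in WT as a log2 fold change (x axis) for the genes of each list (y axis; in brackets the gene the list was built around). Open circles did not pass, filled circles had a limma adjusted p under 0.05, and stars show the gene named in brackets; the lists of stomach, testis, meiosis, melatonin receptors and pituitary hold 0 filled circles, and the macrophage list holds 14.

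Marker genes of other cell types also differed with diet in WT. Of 19 macrophage genes 13 rose and 1 fell in WT by limma, with a median log2 fold change of 1.30, and the mean level of the list was 10.53 to 10.89 in WT on Western diet, against 9.33 to 9.68 on normal diet. Atp6v0d2, part of the vacuolar ATPase of osteoclasts and macrophages, rose by 3.71 ± 0.46 and Mmp12, the macrophage elastase, by 2.49 ± 0.48, while Mertk fell by 0.77 ± 0.16. In EKO that mean was 9.48 to 9.73 on Western and 9.04 to 10.03 on normal diet, where replicate 4 was the highest, and 0 of the 19 passed (2 had an unadjusted p under 0.05). Of 11 mesothelial genes 9 fell in WT, among them the uroplakin gene Upk1b (-1.42 ± 0.21), and the list mean was 8.99 to 9.14 on Western, against 9.81 to 10.34 on normal diet. Their part in the levels of the 10 genes was not tested. Of 9 endothelial genes 0 passed in WT (1 had an unadjusted p under 0.05), and of 12 stromal genes 1 passed, the collagen-binding proteoglycan lumican (Lum, 1.13 ± 0.28). Of 14 adipocyte genes 4 fell in WT, among them Adipoq, the adiponectin gene (-0.45 ± 0.09), and Acvr1c, an activin receptor gene (-1.08 ± 0.17). Of 8 smooth muscle genes 1 fell, the myosin gene Myh11 (-0.78 ± 0.19). In the EKO diet comparison 0 genes of all these lists passed by limma, and 6 of the 8 smooth muscle genes were lower at an unadjusted p under 0.05.

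EKO replicate 4 on normal diet, the array with the highest macrophage mean in EKO, was also the highest of its group for 7 of the 10 genes, where it was so for 28.1% of all genes. WT replicate 1 on normal diet was highest of its group for 8 of the 10, against 31.4% of all genes. Over the 8 EKO arrays, which share 2 diets and the background split, 45 pairs of the 10 genes were correlated, with a median Pearson r of 0.21 and a range of -0.59 to 0.96. Lipf and Slc5a7 had r = 0.96 (Spearman 0.93), and r was 0.94 within diets and 0.97 without EKO replicate 4 on normal diet. Slc5a7 and Lctl had r = 0.93 (Spearman 0.74), and Lipf and Lctl r = 0.88 (Spearman 0.69). Lipf, Slc5a7, Lctl and Prune2 had r of 0.67 to 0.96 in all 6 of their pairs, and 0.46 to 0.96 within diets. Lipf was near background on 3 of these arrays, and Cdkl4 was at background in both EKO groups. Oxtr, Mrc2 and Fam122b had r of 0.82 to 0.87. Without EKO replicate 4 on normal diet r was 0.55 for Oxtr and Mrc2 (Spearman 0.64), 0.53 for Oxtr and Fam122b (Spearman 0.36) and 0.19 for Mrc2 and Fam122b (Spearman 0.07). Within diets, pairs across these sets were also high, at 0.91 for Lipf and Oxtr, 0.85 for Slc5a7 and Oxtr and 0.74 for Lctl and Mrc2. Prune2 had 0.47 with Oxtr, 0.36 with Mrc2 and 0.33 with Fam122b within diets. The sets are thus not separate once diet means are removed. These groupings were noticed in the values and carry no test.

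**Figure D4:**
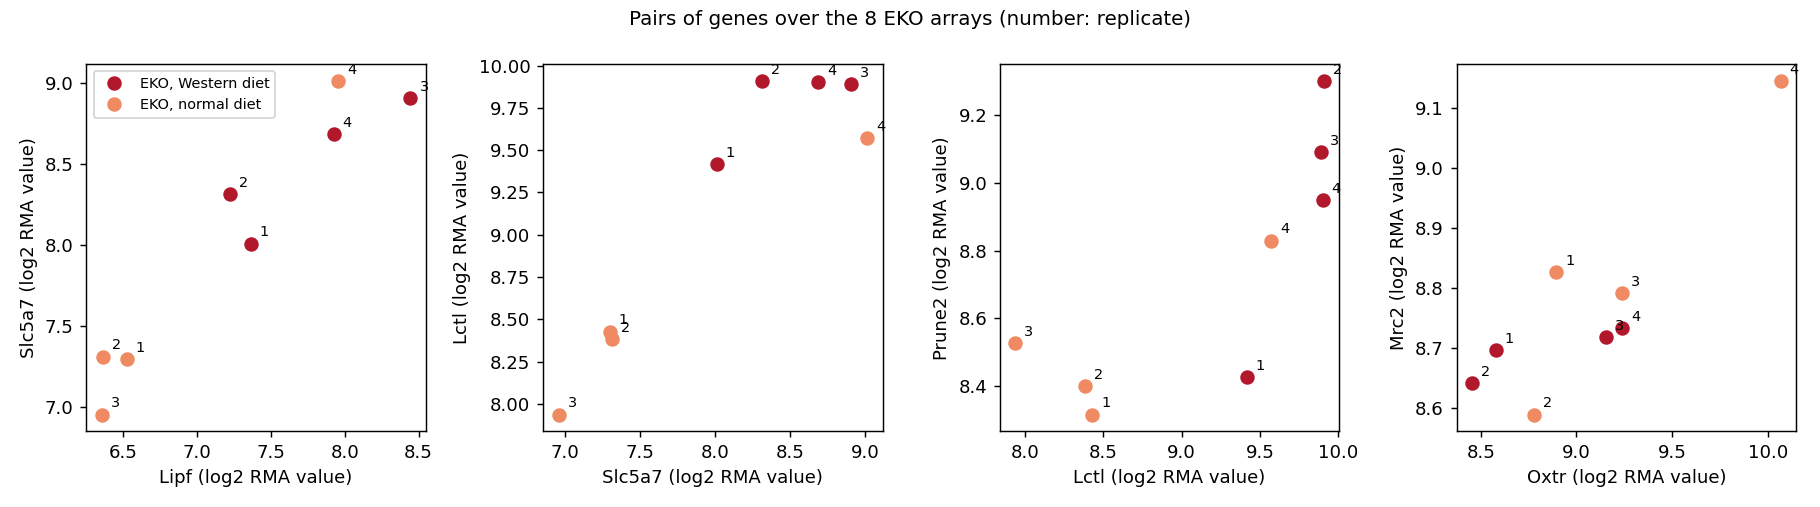
Log2 RMA levels of 4 pairs of genes over the 8 EKO arrays, Western diet in dark red and normal diet in orange, with the replicate number beside each point; both axes are log2 RMA values. Lipf and Slc5a7 lie close to a line (r = 0.96), and replicate 4 on normal diet lies far from the other arrays in the plot of Oxtr and Mrc2.

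With the mean of the macrophage list over the same 8 arrays, Slc5a7 had r = 0.66, Lipf 0.57, Lctl 0.56, Prune2 0.55, Sycp3 0.30, Cdkl4 0.02 and Gpr50 -0.44. Oxtr had 0.52, Mrc2 0.69 and Fam122b 0.72, and these were -0.18, 0.14 and 0.27 without EKO replicate 4 on normal diet. Within diets r with the macrophage list was 0.88 for Mrc2, 0.80 for Fam122b, 0.70 for Lctl, 0.68 for Slc5a7 and 0.66 for Oxtr. It was 0.59 for Lipf, 0.56 for Prune2 and 0.28 for Sycp3, against -0.08 for Cdkl4 and -0.55 for Gpr50. With the mean of the stromal list Oxtr had 0.86, Mrc2 0.85 and Fam122b 0.72, and the other 7 genes had -0.58 to 0.33. For Oxtr, Mrc2 and Fam122b r with the stromal list was 0.74, 0.81 and 0.42 without EKO replicate 4 on normal diet. Within diets r with that list was 0.85 for Oxtr, 0.85 for Mrc2 and 0.71 for Fam122b. It was also 0.69 for Lipf, 0.61 for Slc5a7, 0.53 for Prune2 and 0.50 for Lctl, against 0.04 for Cdkl4, -0.15 for Sycp3 and -0.54 for Gpr50. Cdkl4 and Gpr50 lay below the 95th percentile of receptor rows on all 8 arrays. With the mesothelial list Mrc2 had 0.59, Fam122b 0.57 and Oxtr 0.42, and the other 7 genes had -0.63 to 0.17. Those of Mrc2, Fam122b and Oxtr were 0.70, 0.60 and 0.26 without EKO replicate 4 on normal diet. With the adipocyte list Oxtr had 0.54, Prune2 0.44, Mrc2 0.42 and Fam122b 0.26, and the rest had -0.52 to 0.15. Within diets Prune2 had 0.86 with the adipocyte list, and the rest had -0.46 to 0.48. The r over all 8 arrays given here, singly or as a range, are the 40 computed, over 4 lists.

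Over all 14 arrays, which hold the WT difference that chose the genes, the profiles most like each member were named by Pearson r. Lipf was most like Slc5a7 (0.986), Ddah1 (0.972), an enzyme that clears methylarginines, and Ugt3a2 (0.971). After Lipf, Slc5a7 was most like Lgals3 (0.977), the galectin-3 gene, and Lctl (0.976), whose other nearest genes were Lgals3 (0.971) and Ddah1 (0.966). Mrc2 and Fam122b were most like each other (0.986), and both had Spc25, a kinetochore gene, and Itgax, the CD11c gene, next, at 0.984 and 0.982 for Mrc2 and at 0.974 and 0.979 for Fam122b. Cdkl4 was most like Spc25 (0.984), Itgax (0.982) and Ubd (0.982), a ubiquitin-like gene. Sycp3 had the loosest likeness, at 0.909 with Cd84, 0.907 with Rgs1 and 0.901 with Arhgap9, all genes of blood cells. Prune2 was most like Sdhaf3 (0.982), Npl (0.977) and Ppp2r5b (0.977), Oxtr like Olfml3 (0.964), Jpt2 (0.958) and Pea15a (0.957), and Gpr50 like Il13ra2 (0.964), Fam83d (0.962) and Trdn (0.960). Over the EKO arrays alone the r of these pairs ran from 0.24 to 0.96. Cdkl4 had 0.24 with Spc25, 0.49 with Itgax and 0.72 with Ubd, and Mrc2 had 0.26 with Spc25 and 0.50 with Itgax. Gpr50 had 0.36 with Il13ra2, while Prune2 and Sdhaf3, and Lipf and Slc5a7, had 0.96.

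The genes beside the 10 on their chromosomes were read from the order of protein-coding genes in GRCm38.p6, 2 measured genes on each side. Of these 40 neighbours 2 rose in WT by limma and 0 fell, where 3.19% of all genes passed as higher and 2.3% as lower. Their median log2 fold change was 0.0036, with a range of -0.53 to 0.58. The 2 were Zwilch, a kinetochore gene whose body overlaps that of Lctl (0.58 ± 0.14), and Hprt, a purine salvage gene beside Fam122b (0.47 ± 0.11). Chpt1, which overlaps Sycp3 and makes phosphatidylcholine, had a WT difference of -0.27 (limma adjusted p = 0.166). Whether the probe sets of overlapping genes read 1 strand is not given in the labels.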

How the data were processed

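The authors' deposited values are log2 levels of probe sets on 14 arrays; the submitters' processing notes name RMA, without a version. RMA usually makes the distributions of brightness of the arrays alike, which can hide changes common to most genes. The deposited array medians still ran from 7.92 to 8.10. Which RMA settings were used is not given in these sources. Deposited values ran from 4.21 to 14.5. Of 34760 probe sets, 21640 had 1 gene symbol, 1321 several and 11799 none. For 954 genes with several sets the one with the highest mean over 14 arrays was kept, leaving 19937 genes.

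A model with 1 mean per group was fitted to all 14 arrays (limma 3.58.1, R 4.3.3, lmFit and eBayes, 10 residual degrees of freedom), with two-sided p adjusted by Benjamini-Hochberg over all genes and a threshold of 0.05. It was tested on simulated data. The number of arrays limits the precision. A group whose mean did not exceed 6.84, the top of the 14 array means over receptor rows, counts as background. For a fold bound each of its arrays was raised to that array's receptor mean where the gene lay lower. Such bounds are ratios of group means and leave out the spread between arrays.

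The 10 members and all gene lists were chosen with earlier results of these data known. Named are all members, up to 4 genes of each list that passed (otherwise those with the smallest p), the 3 genes most like each member over 14 arrays (predicted genes passed over), Lipa and Apoe. Chat, Cblif, Atp4a, Oxt, Klb, Mrc1, Sycp1, Sycp2, Fam122a, Fam122c and the neighbours were named outside that rule, after their values were seen. Promoters are RefSeq's (GRCm38.p6). Figures used matplotlib 3.10.9. Alternatives were other scaling, filters, priors, weights and blocks, and leaving out each array.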

Additional observations from a re-analysis of the deposited data

Results flagged for a closer look

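In 20 groups of 4 EKO arrays, 1 per gene and diet, 3 held an array far from the other 3 by Dixon's criterion, which chance alone gives in about 1 in 20 groups. Lipf was 7.96 in EKO replicate 4 on normal diet, with 6.53 the nearest of its group. Lctl was 9.42 in EKO replicate 1 on Western diet, with 9.89 the nearest. Gpr50 was 7.05 in EKO replicate 2 on normal diet, with 6.84 the nearest, a gap of little size on the log2 scale.

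For 5 genes the diet effect in EKO minus that in WT passed in the interaction test by limma. It was -2.99 ± 0.28 for Cdkl4 (adjusted p = 0.000197), -2.28 ± 0.44 for Gpr50 (0.0355), -2.30 ± 0.46 for Oxtr (0.0432), -2.03 ± 0.16 for Mrc2 (4.53e-05) and -1.50 ± 0.16 for Fam122b (0.000664). Cdkl4 lay at background in 3 of its 4 groups, so its value is neither a measured size nor a bound. The test holds the WT arrays on which the genes were chosen. For Lipf, Slc5a7, Lctl, Sycp3 and Prune2 the interaction missed the threshold, at adjusted p of 0.0741 to 0.114.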

How the results depend on the processing

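The count of 0 of 10 genes past the threshold for diet in EKO held in all 26 alternatives. The counts of 10 for diet in WT and 10 for EKO against WT on Western diet were each 6 when genes below the median of mean level were left out, which left 6 of the genes to be tested. Without single arrays they ran from 10 to 10 in WT and from 9 to 10 for genotype. In EKO, Gpr50 turned to -0.024 with the background set as a block and to -0.12 with background as a covariate. Leaving out single arrays gave -0.12 to 0.032 for Fam122b and -0.18 to 0.52 for Sycp3. Taking the 95th percentile of receptor rows as background moved the bounds of Cdkl4 to 3.41-fold for diet in WT and 3.10-fold for WT over EKO on Western diet. With that floor, diet in WT was at least 7.79-fold for Lipf, 8.08 for Slc5a7, 5.32 for Sycp3, 2.44 for Gpr50 and 2.37 for Fam122b. The ratio of means for diet in EKO was at least 1.18-fold for Slc5a7, whose EKO groups overlapped. WT over EKO on Western diet was at least 7.18-fold for Lipf, 4.20 for Sycp3, 2.22 for Gpr50 and 2.21 for Fam122b. The causes were not tested. Gpr50 in WT was 1.44 with array weights, and 1.99 to 2.95 without single arrays.

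Replicate numbers showed no steady pairing of the samples. With group means removed, same-numbered arrays of unlike diet correlated at 0.20, -0.59, -0.42 and 0.45 in EKO and at 0.46, 0.19 and 0.0089 in WT. Differently numbered arrays ran from -0.57 to 0.61 in EKO and from -0.46 to 0.38 in WT. So few values do not exclude pairing in either genotype. With the replicate block within genotype, 0 of the 10 genes passed in EKO and 10 in WT. No such fit exists between genotypes, where blocks are nested. With the background set as a block 0 of the 10 passed in EKO and 10 in WT, and within the 9 arrays of lower background 0, 10 and, for EKO against WT on Western diet, 9. With 3 or 4 arrays a group, EKO differences inside the intervals given could not be resolved, and levels near the receptor rows bound rather than measure a gene.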
